A study of Caenorhabditis elegans with 2 samples.

Results

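The genes described here are the small nuclear RNA (snRNA) genes of the nematode Caenorhabditis elegans, 129 of the 46926 genes in the Ensembl annotation of the WBcel235 genome. They are all genes to which that annotation gives the biotype snRNA. The 30 whose symbols start with sls- are spliced leader genes (12 sls-1 and 18 sls-2 genes) and are counted apart from the 99 others. No measured value was used to choose them.

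The data are peak lists from chromatin immunoprecipitation followed by sequencing (ChIP-seq) of the homeobox protein CEH-82, the product of F45C12.2. All material came from whole L4 larvae, males and females pooled, of strain OP212, genotype unc-119(ed3) III; ddEx58, whose transgene carries F45C12.2 with GFP and FLAG joined to the C-terminus. The labels give 2 biological replicates of this 1 group and shearing by sonication, and they do not give the promoter that drives the transgene. They name both an extrachromosomal array and an insertion. There is no untagged strain or second condition here, and the control against which the authors scored peaks was not analysed, so whether a summit marks binding of CEH-82 was not tested.

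Spliceosomal snRNAs are the RNA cores of the particles that remove introns. Spliced leader RNAs are also carried in such particles, and they donate a short leader that is joined to the 5′ end of most nematode messenger RNAs. The SL1 leader is joined to the first gene of an operon and to many other messages, and SL2 leaders mainly to downstream genes of operons. RNA polymerase II transcribes most of these genes and RNA polymerase III the U6 genes. Both types carry a proximal sequence element bound by the SNAPc complex, and U6 promoters also hold a TATA box.

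The first sequences shown are the starts of the spliced leader genes that carried the strongest peaks off the genome's first chromosome, with a neighbour and an sls-1 gene for comparison. Each sls-2 sequence runs from 75 bases before the gene start to base 22 of the gene, 5′ to 3′ on the strand of the gene, and capitals mark the first 22 bases of the gene, which hold the leader. For the sls-1 gene the first 24 bases are given, with 22 of them in capitals. The sequences are from the RefSeq assembly of ce11, the same genome build, at II:5844790-5844886 (+), II:5543523-5543619 (+), II:5544252-5544348 (-), III:12250390-12250486 (+) and V:17120768-17120791 (-).
sls-2.1: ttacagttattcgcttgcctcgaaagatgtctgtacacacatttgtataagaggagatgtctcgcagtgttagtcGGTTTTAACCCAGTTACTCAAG
sls-2.2: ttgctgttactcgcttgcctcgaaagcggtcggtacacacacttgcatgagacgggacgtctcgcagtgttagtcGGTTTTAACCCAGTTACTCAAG
sls-2.3: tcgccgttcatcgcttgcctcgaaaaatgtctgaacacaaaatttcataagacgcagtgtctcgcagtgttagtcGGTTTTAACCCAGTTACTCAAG
sls-2.8: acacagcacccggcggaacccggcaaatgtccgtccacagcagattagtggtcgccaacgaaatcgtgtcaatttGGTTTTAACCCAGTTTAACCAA
sls-1.10: cGGTTTAATTACCCAAGTTTGAGg
The leaders of sls-2.1, sls-2.2 and sls-2.3 are the same here, and so are the bases directly before the leaders. Further upstream these sequences match in some stretches and differ in others.

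The next sequences are the 75 bases before the start of 6 other snRNA genes with strong peaks, again 5′ to 3′ on the gene strand from the RefSeq ce11 assembly. Capitals mark short words that recur before snRNA genes and are described further on. The stretches lie at II:12944968-12945042 (-), V:14028636-14028710 (-), V:11980043-11980117 (+), IV:9444567-9444641 (+), IV:9511840-9511914 (-) and X:14476792-14476866 (+).
sup-6: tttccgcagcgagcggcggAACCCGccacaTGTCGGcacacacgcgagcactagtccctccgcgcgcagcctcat
T08G5.11: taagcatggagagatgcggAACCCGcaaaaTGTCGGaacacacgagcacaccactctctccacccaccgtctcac
C52E4.8: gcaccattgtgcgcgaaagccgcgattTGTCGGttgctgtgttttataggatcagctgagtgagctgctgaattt
F38E11.10: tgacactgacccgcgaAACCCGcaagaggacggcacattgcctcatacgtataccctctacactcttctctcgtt
smy-1: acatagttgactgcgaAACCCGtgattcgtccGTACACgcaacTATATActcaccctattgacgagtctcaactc
M163.13: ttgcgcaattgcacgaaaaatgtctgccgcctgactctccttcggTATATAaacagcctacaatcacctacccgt

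Summits were found near the starts of many sls-2 genes and of some other snRNA genes, but near none of the sls-1 genes. A gene was counted when a summit, the highest point of a peak, lay within 500 bp of its start. In the relaxed list that the authors made from the pooled reads, 13 of 30 spliced leader genes (43.3%, exact 95% interval 25.5 to 62.6%) and 24 of 99 other snRNA genes (24.2%, 16.2 to 33.9%) had one, beside 16.3% of all genes. All 13 were sls-2 genes, which makes 72.2% of the 18 (46.5 to 90.3%). Among the 12 sls-1 genes the count was 0 in every list. Their surroundings are almost wholly repeated in the genome. Whether reads there could be placed on 1 copy was not tested, so this 0 sets no limit on binding. Intervals are Clopper-Pearson intervals, cover counting error only, and treat genes as independent although some share sequence or a summit.

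The stronger and stricter lists held fewer of these genes. Among the 1000 pooled peaks that had the highest signal values, 4 sls-2 genes (22.2%) and 11 other snRNA genes (11.1%, 5.68 to 19%) had a summit, beside 1.85% of all genes. The authors' thresholded list of 57 peaks reached sls-2.1 and sls-2.4, which are 2 of the 30 spliced leader genes, and 0 of the 99 others, beside 0.139% of all genes. The signal value is the authors' score for a peak relative to a control. Its scale is not stated, so it is used only to rank and describe peaks within a list.

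The lists of the single replicates held summits near fewer of the genes than the pooled list did. Replicate 1 had a summit near 9 spliced leader and 13 other snRNA genes, 17.1% of the 129 beside 5.02% of all genes. Replicate 2 had one near 8 and 19, 20.9% beside 9.66% of all genes. Both lists held a summit near 5 spliced leader genes, all sls-2, and 10 others, together 11.6% beside 1.40% of all genes. These 15 genes are 68.2% of those found in replicate 1 and 55.6% of those in replicate 2. Over all genes the shared 658 are 27.9% and 14.5%. The larger list of replicate 2 (8651 peaks against 4561) and the unknown read depth limit this comparison. With 2 replicates of 1 group, no test over samples was possible.

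Of the 129 genes, 15 had a summit in the pooled list and in both replicates, 5 in the pooled list and replicate 1 only, 11 in the pooled list and replicate 2 only, and 6 in the pooled list alone. Another 3 had one only in a replicate list, namely sls-2.17 and B0205.15 in replicate 1 and ZK897.3 in replicate 2. The other 89 genes, 16 spliced leader and 73 others, had none in any list.

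Genes of 2 other small RNA classes had summits at least as often in the pooled list. Small nucleolar RNA genes were counted in 45.4% of 346 and nuclear tRNA genes in 39.5% of 612, against 28.7% of all snRNA genes. In the 1000 strongest peaks the shares were 16.8% for small nucleolar RNA genes, 11.6% for snRNA genes and 8.17% for tRNA genes. In both replicates they were 8.09%, 11.6% and 5.88%. The intervals of the snRNA and small nucleolar RNA shares overlap in the last 2 comparisons.

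**Figure D1:**
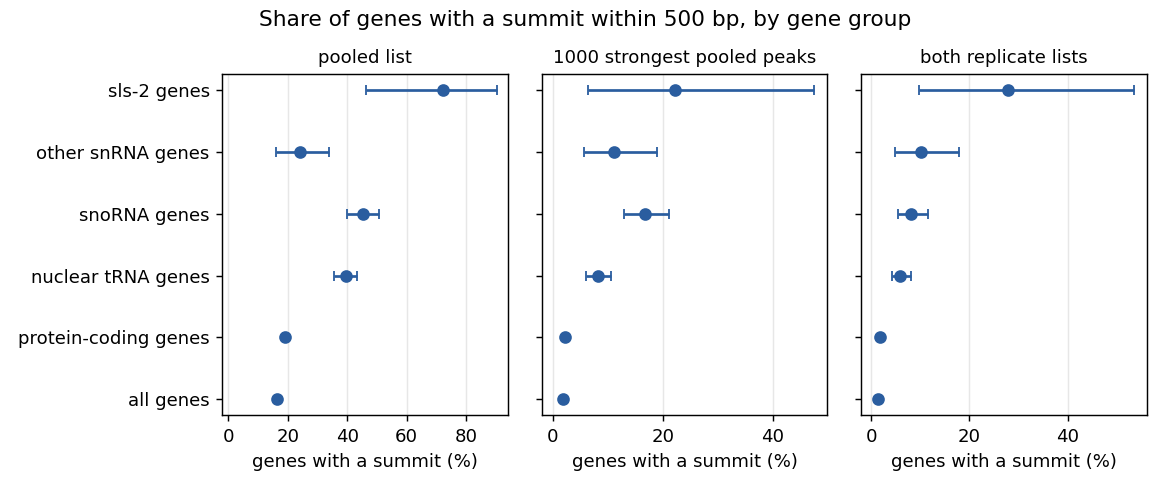
Share of genes (%) with a summit within 500 bp of the start for 6 gene groups, in the pooled list, its 1000 strongest peaks and both replicate lists; points are shares and bars exact 95% intervals for counting error. The 18 sls-2 genes reach 72.2% in the pooled list and all genes together sit at 16.3%, and the sls-1 genes, whose surroundings are repeated, are not drawn.

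Among the sls-2 genes, whose RNAs supply the SL2-type leaders, sls-2.4 (I:4172206-4172315, + strand) had the highest signal value of any snRNA gene. It had a pair of partly overlapping thresholded peaks, of signal 22.5 with its summit 22 bp upstream of the start (rank 30 of 15658 in the pooled list) and of signal 17.1 with its summit 178 bp downstream (rank 49). The signal was 11.3 in replicate 1 and 14.1 in replicate 2. The nearest coding start was that of egg-5, and the stronger summit lay 595 bp upstream of it.

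The gene sls-2.1 (II:5844865-5844974) had a pooled signal of 19.1 at 97 bp downstream of its start, at rank 37. Its signal was 4.05 in replicate 1 and 16.6 in replicate 2, which rank 490 of 4561 and 26 of 8651 in their own lists. In replicate 2 the summit was at the same 97 bp, and in replicate 1 at 211 bp.

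Its relative sls-2.2 (II:5543598-5543707) had a pooled signal of 15.1 at 27 bp (rank 70), with 8.16 in replicate 1 and 8.79 in replicate 2. These summits lay 20 bp downstream and 12 bp upstream of the start. In sls-2.8 (III:12250465-12250575) the pooled signal was 8.61 at 143 bp, with 2.85 in replicate 1 and 8.50 in replicate 2, and the summit also lay 52 bp upstream of the start of the coding gene Y75B8A.23.

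Next to sls-2.2 on the opposite strand lies sls-2.3, with the same printed leader. Its strongest pooled summit had a signal of 5.72 at 93 bp upstream, below the signal of 6.10 that closed the 1000 strongest. Replicate 1 gave 5.62 at 351 bp downstream and replicate 2 gave 4.28 at 9 bp upstream. The replicate 1 summit lay between the 2 genes and within 500 bp of both starts. The strong summit of sls-2.2 lay 648 bp from the sls-2.3 start, just outside the window. Counting only the 1000 strongest summits, no gene lay near the 500 bp limit on the inside: the nearest to it were T08G5.11 at 246 bp and sup-39 at 214 bp. After sls-2.3 at 648 bp, the next gene outside was F54C8.8 at 2234 bp.

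The 8 remaining sls-2 genes with a pooled summit had signals from 2.27 (sls-2.18) to 4.94 (sls-2.9), and none was found in both replicates. Of these, sls-2.14 and sls-2.15 share a summit. The 5 without a pooled summit were sls-2.6, sls-2.11, sls-2.12, sls-2.13 and sls-2.17. Over all 18, the nearest pooled summit was at a median of 88.5 bp from the start, against 2711 bp for all genes and 14795 bp for the 12 sls-1 genes.

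**Figure D2:**
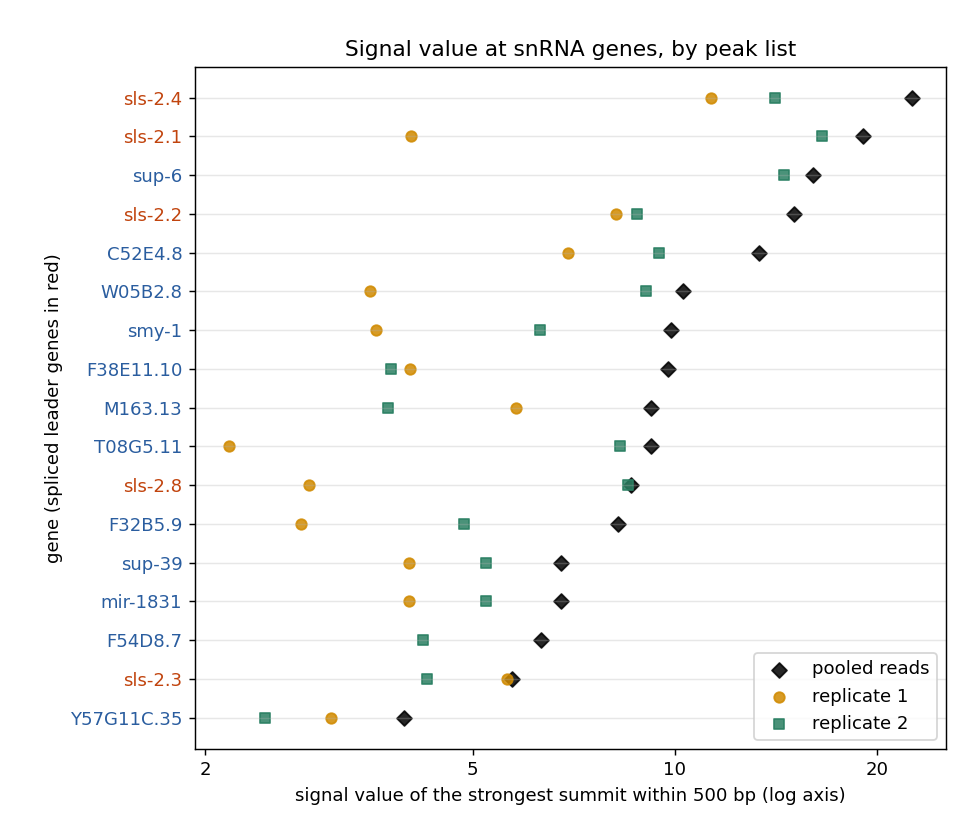
Signal value (log axis, authors' score) of the strongest summit within 500 bp for the 17 snRNA genes in the 1000 strongest pooled peaks or in both replicate lists; diamonds are pooled reads, circles replicate 1 and squares replicate 2. Values are not on a shared scale between lists, so they are read within a list: sls-2.4 (22.5, 11.3 and 14.1) ranks 30 pooled, 26 in replicate 1 and 37 in replicate 2, and sup-6 and F54D8.7 have no replicate 1 point.

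The sup-39 family came next. It holds 13 genes of median length 165 bp and median pairwise identity 95.2%, among them sup-6 and sup-39, in which mutations are known as suppressors and which encode U1 RNA. In 12 of the 13 the word ACTTACC, with which U1 RNA pairs to the 5′ splice site, lies within the first 12 bases. The annotation names no class for the other members. A pooled summit was found for 5 of the 13 (38.5%, beside 16.3% of all genes). Of those, 3 were among the 1000 strongest (23.1% of the 13, beside 1.85% of all genes).

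The gene sup-6 (II:12944803-12944967) had the highest signal outside the spliced leader genes. Its signal was 16.1 at 240 bp downstream (rank 59), just under the lowest thresholded value of 16.4, with a second summit of 8.02 at 17 bp. Replicate 2 gave 14.5 at 171 bp and replicate 1 had no summit. It lies within the coding gene F58G1.7 on the same strand, whose start is 3531 bp away.

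T08G5.11 (V:14028471-14028635) had a pooled signal of 9.21 at 246 bp, with 2.17 in replicate 1 and 8.29 in replicate 2. For sup-39 (II:6968394-6968558) the values were 6.76 at 214 bp, 4.03 and 5.23. The entry mir-1831, 22 bp long and given the biotype snRNA, lies inside sup-39 and shares this summit, so the 2 genes are 1 observation. F08H9.11 (5.05) and H27M09.6 (2.24) had weaker pooled summits, and the other 8 members had none.

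C52E4.8 (V:11980118-11980261) was the only gene of the 5 in the T11F9.15 family with a summit (20% in the pooled list, beside 16.3% of all genes). Its pooled signal was 13.4 at 27 bp upstream (rank 98), with 6.93 in replicate 1 and 9.47 in replicate 2, and the replicate summits were 185 bp downstream and 40 bp upstream. The same pooled summit lay 368 bp upstream of snr-4, which encodes an Sm core protein of the same particles, so the 2 genes cannot be told apart by it. A second pooled summit, of signal 7.23 at 183 bp downstream of C52E4.8 (rank 626), lay more than 500 bp from the snr-4 start. Replicate 1 had no summit within 500 bp of that start.

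The F07C6.5 family has 12 genes of median length 122 bp to which the annotation gives no class. Of these, 4 had a pooled summit (33.3%, beside 16.3% of all genes). Among the 1000 strongest were 2 (16.7%, beside 1.85% of all genes). F38E11.10 (IV:9444642-9444763) had a pooled signal of 9.76 at 27 bp upstream, 4.03 in replicate 1 and 3.78 in replicate 2. F32B5.9 had 8.23 at 124 bp, 2.77 and 4.85. It lies inside cpz-1 on the opposite strand, and its summit was 358 bp downstream of the cpz-1 start. F42C5.12 (4.60) and ZK897.4 (3.43) completed the 4.

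The C47F8.9 family has 19 genes of median length 187 bp and identity 98.9%, and 18 of them contain GTAGTA, the word by which U2 RNA pairs with the branch site. Of the 19, 4 had a pooled summit (21.1%, beside 16.3% of all genes). Among the 1000 strongest were 0, beside 1.85% of all genes, so this 0 sets the family apart from few other genes. Y57G11C.35 alone was found in both replicates, with a pooled signal of 3.95 and replicate signals of 3.07 and 2.46. F08G2.10 had 4.30, T14B4.10 had 2.92 and F56H6.15 had 2.38.

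The R07E5.16 family has 24 genes of median length 102 bp and identity 99%, and 22 of them contain ACAGAGA, known from U6 RNA. Of the 24, 3 had a pooled summit (12.5%, beside 16.3% of all genes) and 2 had one of the 1000 strongest (8.33%, beside 1.85%). W05B2.8 (III:10989679-10989780) had a pooled signal of 10.3 at 29 bp upstream, 3.52 in replicate 1 and 9.05 in replicate 2. F54D8.7 (III:5080798-5080898) had 6.32 at 166 bp, no summit in replicate 1 and 4.22 in replicate 2. The founder of the name, R07E5.16, had 5.13 at 50 bp upstream.

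SmY RNAs are small nematode RNAs known to associate with Sm proteins and the trans-splicing machinery. Of the 9 genes in the smy family, smy-1 (IV:9511763-9511839) had a pooled signal of 9.86 at 84 bp, 3.59 in replicate 1 and 6.29 in replicate 2. The gene smy-2, which has another biotype in the annotation, starts within 500 bp of that summit, so they cannot be told apart. The gene smy-6 had 3.84 at 289 bp upstream, and the other 7 had none. The 2 with a pooled summit are 22.2% of the family, beside 16.3% of all genes. In the B0213.21 family of 7, T10H4.16 alone had a pooled summit (signal 2.91), which makes 14.3%.

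The remaining 10 genes were in no family of at least 4 members, and 4 had a pooled summit (40%, beside 16.3% of all genes). M163.13 (X:14476867-14476946) had a pooled signal of 9.22 at 38 bp downstream, 5.81 in replicate 1 at the same 38 bp, and 3.74 in replicate 2 at 59 bp. Besides mir-1831, the others were F35B3.10 (3.57) and F56A12.5 (2.10).

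**Figure D3:**
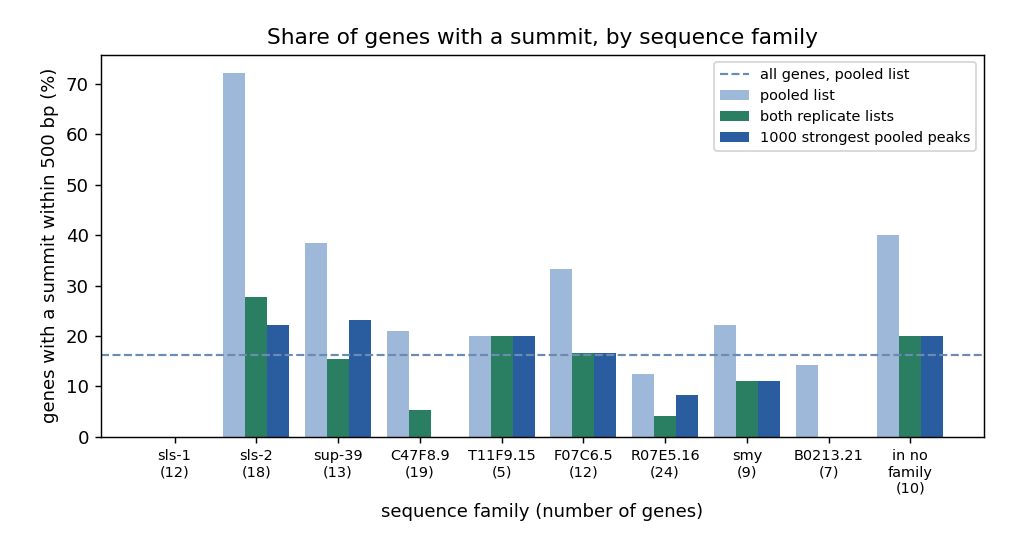
Percent of the genes of each sequence family (number of genes in brackets) with a summit within 500 bp in the pooled list, in both replicate lists and in the 1000 strongest pooled peaks; the dashed line is all genes in the pooled list (16.3%). The pooled-list bar of sls-2 is the tallest, 13 of 18, the sls-1 bars are at 0, and in the 1000 strongest peaks sup-39 (23.1%) and sls-2 (22.2%) stand side by side.

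Where a gene had a pooled summit, its signal was more often high than at other genes. The median signal of the strongest summit was 4.45 for the 13 sls-2 genes and 5.09 for the 24 other snRNA genes, against 3.14 for the 7672 genes of all kinds. Of the 37 snRNA genes, 40.5% had a summit among the 1000 strongest, against 11.3% of all genes with a summit and 36.9% of small nucleolar RNA genes.

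Pooled summits sat close to most of the spliced leader gene starts that had one. In the pooled list 11 of 13 spliced leader genes (84.6%) and 8 of 24 other snRNA genes (33.3%) had their strongest summit within 100 bp of the start, against 22.5% of protein-coding and 24.2% of all genes with a summit. These shares differed by replicate. In replicate 1 they were 4 of 9 (44.4%) and 1 of 13 (7.69%), beside 23.8% of all genes, and in replicate 2 they were 6 of 8 (75%) and 10 of 19 (52.6%), beside 24.5%. In the pooled list the median position was 24 bp downstream for spliced leader genes and 80 bp downstream for the others. For protein-coding genes it was 76 bp upstream. The value for the other snRNA genes was not stable, since with replicate 2 alone their median was 24 bp upstream and with the nearest summit in place of the strongest 27 bp upstream.

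Among the 1000 strongest peaks, 11 of 15 snRNA genes (73.3%) had the summit downstream of the start, against 39.4% of all genes and 22.6% of protein-coding genes, with the shared summit of sup-39 and mir-1831 counted for each. In the whole pooled list the share was 59.5%, against 47% of all genes. These genes are mostly shorter than the usual pooled peak width of 370 bp, so a summit cannot be placed in the promoter rather than in the gene. Between replicates, the summits at the 15 genes found in both differed by a median of 163 bp and at most 488 bp, and by at most 100 bp in 4. As a percentile of its own list, the signal was higher in replicate 2 for 10 of the 15.

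**Figure D4:**
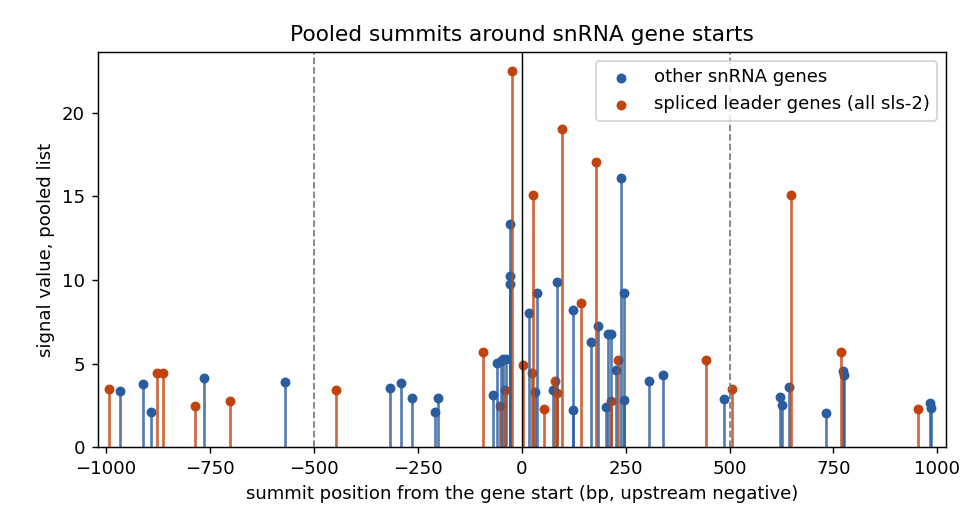
Pooled summits within 1000 bp of snRNA gene starts, with position from the start in bp (x) and the authors' signal value (y); dashed lines mark the 500 bp window, and a summit near several genes is drawn for each. The strongest summits lie between 29 bp upstream and 246 bp downstream, except that of sls-2.2, which is drawn again at 648 bp from sls-2.3.

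Neighbouring coding genes touched few of these summits. Of the 15 genes among the 1000 strongest, 3 (sls-2.8, C52E4.8 and F32B5.9) had a summit within 500 bp of a coding start. Counted as summits this was 3 of 17 (17.6%), against 377 of the 1000 strongest peaks (37.7%). Of the 15 genes 6 lie inside a coding gene, as do 63 of all 129.

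Repeated sequence moved with these counts. Many snRNA genes are near-identical copies, and a read that lies wholly in identical sequence cannot be placed on 1 of them alone. For each gene, the share of 32-base words within 250 bp of its start that occur once in the genome was computed. It was at most 18.6% for the 12 sls-1 genes, which have only 2 distinct sequences, and had a median of 88.1% for the 18 sls-2 genes, all distinct. None of the 25 snRNA genes below 50%, which include the 12 sls-1 genes, had a pooled summit. Few genes of any kind had one there, 1.11% below 25% and 4.92% from 25 to 50%. This 0 therefore says little about snRNA genes. From 50 to 75% a pooled summit was found for 7 of 29 (24.1%), beside 9.45% of all genes. Above that it was 30 of 75 (40%), beside 17%.

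Over all genes the pooled shares in the same ranges also rose, from 1.11% below 25% to 17% above 75%. How far the absence of summits at sls-1 genes reflects reads that cannot be placed was not tested. Within families with unique surroundings, genes with and without a summit were still mixed. The 5 sls-2 genes without a pooled summit had a median uniqueness of 83.4% and the 13 with one 88.1%.

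**Figure D5:**
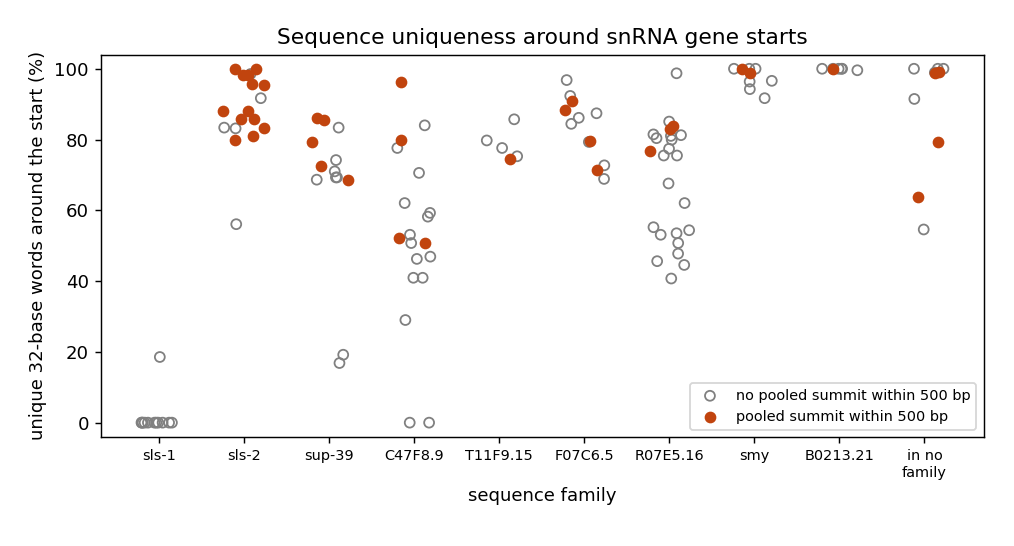
Percent of 32-base words within 250 bp of the start that occur once in the genome (y) for each snRNA gene, by sequence family (x, points spread sideways); filled points have a pooled summit within 500 bp and open points have none. All filled points lie above 50%, and the 12 sls-1 genes lie at or below 18.6%.

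Apart from TATATA, the words in capitals were found without use of the peaks. They came from counting 6-letter words between 75 and 10 bp before the starts of all 129 genes. The most common that did not overlap were AACCCG in 43 genes (33.3%, median position 58 bp upstream), TGTCGG in 41 (31.8%, 47 bp upstream) and GTACAC in 35 (27.1%, 42 bp upstream), on the gene strand. Among the 46792 other genes with such a window they occurred in 0.575%, 0.714% and 0.594%. On either strand AACCCG occurred in 34.9% of snRNA genes and 0.955% of others, TGTCGG in 31.8% and 1.23%, and GTACAC in 32.6% and 1.19%. Since they were chosen for being common in these genes, the difference from other genes is a description.

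The TATA-like word TATATA, the same on both strands, was added by choice. It occurred in 18 snRNA genes (14%, median 30.5 bp upstream) and 3.69% of other genes. Of the 18, 16 were in the R07E5.16 family of 24. AACCCG was found in all 12 genes of the F07C6.5 family and GTACAC in 18 of the 19 of the C47F8.9 family. No C47F8.9 gene had a strong peak, beside 1.85% of all genes. A word match is a description of the sequence and not a site.

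Genes with a strong peak all held at least 1 of the 4 words. Of these genes, W05B2.8, F54D8.7 and M163.13 held only TATATA, the word added by choice. Without TATATA the overlap is therefore not complete. The words were present in 15 of the 15 snRNA genes among the 1000 strongest peaks, where sup-39 and mir-1831 share a summit. They were present in 34 of the 37 with a pooled summit, against 93 of all 129 (72.1%). The 129 include the 12 sls-1 genes, none of which holds a word. Of the 93 genes with a word, 36.6% had a pooled summit and 16.1% one of the 1000 strongest, beside 16.3% and 1.85% of all genes. Of the 24 genes without a word that are not sls-1 genes, 3 (12.5%) had a pooled summit, near the share of all genes. One of the 1000 strongest was found for 0 of the 24, which says little beside a share of 1.85%. The median uniqueness was 90.1% for these 24 and 80% for the genes with a word. Among the genes without a word, sls-2.3 alone was found in both replicates, in replicate 1 through a summit that is also near sls-2.2. No test was made, because the genes of a family share promoters.

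As an illustration, 4 genes of the R07E5.16 family have nearly the same first bases and different upstream sequence. W05B2.8 and F54D8.7, with TATATA in capitals, had a peak among the 1000 strongest, while F32D1.12 and F36A4.23 held none of the words and had no summit in any list. The sequences run from 75 bases before to 30 bases after the start, 5′ to 3′ on the gene strand, from the RefSeq ce11 assembly at III:10989604-10989708 (+), III:5080869-5080973 (-), V:4354365-4354469 (+) and IV:4239685-4239789 (+).
W05B2.8: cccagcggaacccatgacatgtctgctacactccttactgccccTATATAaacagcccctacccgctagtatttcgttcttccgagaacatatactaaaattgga
F54D8.7: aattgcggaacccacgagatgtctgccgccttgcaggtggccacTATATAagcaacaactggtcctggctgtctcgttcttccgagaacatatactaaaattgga
F32D1.12: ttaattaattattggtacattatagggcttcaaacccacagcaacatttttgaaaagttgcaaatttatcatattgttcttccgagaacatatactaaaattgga
F36A4.23: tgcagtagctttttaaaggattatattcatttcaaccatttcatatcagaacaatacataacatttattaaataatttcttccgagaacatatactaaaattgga
The uniqueness was 83.8% and 82.9% for the first pair and 85.1% and 81.4% for the second. These 4 were picked after their values were seen, so they support no link between the word and a peak, and 14 of the 16 genes with TATATA in this family had no strong peak.

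Protein-coding genes for splicing and for snRNA transcription were counted from a list of 49 names, of which 47 matched the annotation. The list was chosen with earlier results of these data known, so its shares are a description and support no link. Of the 47, 21 had a pooled summit within 500 bp (44.7%, against 19% of protein-coding genes) and 5 had one of the 1000 strongest (10.6%, against 2.21%). A thresholded summit was found for 0, beside 0.165% of protein-coding genes. Both replicates held a summit for 3, beside 1.78% of protein-coding genes. By role, the pooled list held 6 of 7 Sm proteins, 3 of 8 Lsm proteins, 3 of 6 proteins of the U1, U2 and spliced leader particles, 6 of 15 spliceosome proteins, 3 of 9 snRNA transcription factors and 0 of 2 assembly factors.

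The 5 with a strong peak were snr-4 and snr-1 (Sm core proteins), mog-4 (an RNA helicase of splicing), prp-8 (the core spliceosome protein) and uaf-1 (the large subunit of the U2AF factor). Their pooled signals were 13.4 at 368 bp upstream, 7.19 at 420 bp upstream, 9.78 at 224 bp upstream, 9.15 at 318 bp upstream and 6.31 at 265 bp downstream. Of these only mog-4 had a summit in both replicates (3.79 and 3.91). The peak of snr-4 is that of C52E4.8, and its signal in replicate 2 was 9.47. The gene snpc-4, which encodes the largest SNAPc subunit, stood at rank 1018 with a pooled signal of 6.07 at 271 bp upstream, just outside the 1000 strongest.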

How the data were processed

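ChIP-seq peaks were deposited as narrowPeak lists. The value used here is the signal score that the authors' caller wrote for each peak, relative to a control, and the deposited descriptions say that the relaxed lists mix peaks with background as input to IDR (irreproducible discovery rate). The relaxed lists hold 15658 pooled peaks (signal 2.00 to 56.9, median 2.95), 4561 in replicate 1 and 8651 in replicate 2, and the thresholded list holds 57. Read depth is unknown, and aligner, caller, versions and thresholds were not given in the sources used here. Lists on ce10 were not used.

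Gene starts came from Ensembl release 115 (WBcel235, equal to ce11), and symbols and sequence from RefSeq. Summits within 500 bp of a start were counted, and the strongest was taken. Families are groups of at least 4 genes linked by a global identity of at least 70%, except that the sls-1 and sls-2 families were set by symbol. The scripts used Python 3.11.15, pandas 2.3.3, numpy 2.4.6, scipy 1.17.1 and Biopython 1.88, and counting was tested on simulated data. Windows, overlap rule, signal threshold and replicates were varied.

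The members and lists were chosen with earlier results of these data known. Genes named were those with a thresholded summit, those with one of the 1000 strongest pooled summits, those in both replicates, those at the edge of the window, and pathway genes with a strong summit. Others were named after their values were seen.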

Additional observations from a re-analysis of the deposited data

How the results depend on the processing

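With a replicate left out, the count of spliced leader genes in the relaxed list was 8 to 9 in place of 13, and that of other snRNA genes 13 to 19 in place of 24. These lists are shorter, and the share of all genes fell too, from 16.3% to 5.02% in replicate 1 and 9.66% in replicate 2. The share of all snRNA genes was 28.7% in the pooled list, 17.1% in replicate 1 and 20.9% in replicate 2. Among the 1000 strongest peaks, the other snRNA genes numbered 7 to 8 with a replicate left out and 5 with the 300 strongest pooled peaks, in place of 11. The splicing and snRNA transcription genes numbered 3 to 4 with a replicate left out and 1 with a window of 250 bp, in place of 5. With the 1000 strongest peaks of each replicate, 3 spliced leader genes in place of 5 and 5 other snRNA genes in place of 10 were found in both. The latter count was also 5 with a window of 250 bp. The median position for other snRNA genes, 80 bp downstream, was -24 bp (upstream) to 159 bp with a replicate left out, the former with replicate 2 alone, and -27 bp with the nearest summit. The cause was not tested. The other 51 values under an alternative stayed within 1.5 times the main count or on the same side of the gene start.

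No paired analysis was possible because both samples belong to 1 group. Peak widths of 370 to 470 bp limit positions, the relaxed lists include background, and near-identical genes cannot be told apart where reads are not unique.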
